A study of Mus musculus with 2 samples.

Results

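A set of 10 genes that control the G1 phase of the cell cycle was followed through the mononuclear phagocytes of the mouse retina. They were the D cyclins Ccnd1, Ccnd2 and Ccnd3, the kinases Cdk4 and Cdk6, the Cdk inhibitors Cdkn1a, Cdkn1b, Cdkn2c and Cdkn2d, and the transcription factor gene Myc. The 10 genes were chosen by their symbols for their known roles, out of 31053 genes in the count tables, and all 10 were found there. The cells came from C57BL/6j pups at postnatal day 17 (P17). The first group had gone through oxygen-induced retinopathy (OIR), a model in which pups breathe high oxygen, return to room air and then grow abnormal retinal vessels. The control group stayed in room air (RA). Cells positive for CD11b and F4/80 were sorted from pooled retinas of each group, and 1 droplet library was made per group, so that no test between OIR and RA was possible and every interval below is a 95% interval for counting error only.

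The D cyclins are the cyclins that growth factor signals switch on in G1. They bind Cdk4 or Cdk6, and the complex phosphorylates the retinoblastoma protein and so releases E2F transcription factors to start DNA replication. Cdkn2c (p18) and Cdkn2d (p19) belong to the INK4 family, which bind Cdk4 and Cdk6 alone, while Cdkn1a (p21, a target of p53) and Cdkn1b (p27) belong to the Cip/Kip family and also block cyclin E and cyclin A complexes. Myc drives growth and ribosome production and binds E-boxes, the sequence CACGTG. Microglia are long-lived macrophages of the nervous system that keep their numbers by dividing in place, and monocytes arrive from the blood.

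Promoters of all 10 members were looked up, and those found were searched for E-boxes, E2F-type motifs and p53 half-sites. The 3 windows shown were picked from those that held a motif. RefSeq sequence (GRCm38.p6) held the 250 bases before a start site for 7 of the 10 members, in 10 windows. No window was found for Ccnd1, Ccnd2 and Myc, so these were not searched. The Cdk4 window (chr10:127063285-127063534, plus strand) is shown for its 4 E-boxes, which begin 172, 118, 98 and 11 bases before the start and are in capitals. The sequence reads the same on both strands. The Cdkn2c window (chr4:109666757-109667006, minus strand) is shown for 1 E2F-type motif, TTCCCGC or TTGGCGC on either strand, which begins 25 bases before the start. The upstream Cdkn1a window (chr17:29090729-29090978, plus strand) is shown for 2 p53 half-sites, which begin 73 and 51 bases before the start. All 3 are printed 5′ to 3′ along the gene, with the motifs in capitals.
Cdk4: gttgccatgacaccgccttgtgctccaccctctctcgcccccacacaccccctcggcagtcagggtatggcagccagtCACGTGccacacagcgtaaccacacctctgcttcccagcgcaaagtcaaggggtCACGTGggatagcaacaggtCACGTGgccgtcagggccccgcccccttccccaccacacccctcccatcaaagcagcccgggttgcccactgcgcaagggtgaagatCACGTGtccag
Cdkn2c: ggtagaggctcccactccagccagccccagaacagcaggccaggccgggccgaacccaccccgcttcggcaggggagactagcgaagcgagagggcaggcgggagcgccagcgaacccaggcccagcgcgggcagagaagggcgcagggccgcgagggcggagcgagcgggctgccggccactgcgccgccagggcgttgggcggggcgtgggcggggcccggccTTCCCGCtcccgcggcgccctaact
Cdkn1a: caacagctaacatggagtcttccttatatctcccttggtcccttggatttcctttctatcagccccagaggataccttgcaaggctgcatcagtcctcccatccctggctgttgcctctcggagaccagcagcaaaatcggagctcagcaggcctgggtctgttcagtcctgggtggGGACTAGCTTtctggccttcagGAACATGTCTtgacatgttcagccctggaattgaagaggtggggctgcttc
Of 32851 promoter windows of the same length, 6.02% held at least 1 E-box, 5.62% an E2F-type motif and 7.13% a p53 half-site, and 7 windows held 4 or more E-boxes. Cdk6 held 1 E-box, 220 bases before its start, and Cdkn2d held 1 p53 half-site, 102 bases before its start. The other windows of Ccnd3, Cdkn1a, Cdkn1b and Cdkn2c held none of the 3 motifs. A match is a string of letters, not a measured binding site.

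The RA library held 1449 cells with 12810892 unique molecular identifiers (UMIs, each counting 1 captured RNA molecule) and a median of 8607 per cell, and the OIR library 1259 cells with 9835402 UMIs and a median of 5254. No cell barcode was shared by the libraries. After filters on mitochondrial RNA and gene number, 2474 cells were clustered with the 10 genes left out, and clusters were named from marker genes. They gave microglia-like cells that were not dividing (711 RA and 380 OIR cells, called microglia below), dividing cells (17 and 121), macrophage-like cells (75 and 103) and monocyte-like cells (52 and 89). A further 101 RA and 194 OIR cells were in shallow clusters of microglia markers. They were kept apart, and values for microglia leave them out. These shallow clusters are described further below. The microglia list summed to 20274 CPM in RA (the usual scaled count, a share of the UMIs of its group and the unit of all levels below) and 20285 in OIR microglia, against 4552 and 6614 in monocytes, whose own list stood at 8161 and 4588. Macrophages held 8194 and 8522 CPM of the microglia list, beside 8456 and 7526 of their own list. Dividing cells held 13559 and 13647 CPM of the microglia list. The leading genes of the 3 deeper microglia clusters were stress, inflammatory and interferon genes such as Ddit3, Tnf and Ifit2 rather than the microglia markers, which were also counted in the other classes. The monocyte class also held 1880 CPM of the neutrophil list in RA and 450 in OIR, and 253 and 201 CPM of the dendritic list. Its lymphocyte list stood at 98.0 and 131 CPM. The part of these markers' cells in its Ccnd2, Ccnd3, Cdkn1b and Cdkn2d levels was not tested. Photoreceptors (308 and 234 cells) were also captured, with 91244 and 93828 CPM of rod genes, and are given below as cells from outside the sort. The nuclear RNA Malat1 was lower in OIR in every class, at 18829 CPM in RA and 7437 in OIR microglia, and its part in the differences between the libraries was not tested.

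The RA dividing group was small and mixed, and each of its values rests on few molecules. Of its 17 cells, 5 had UMIs of fewer than 5 of the dividing-cell markers, against 7 of 121 in OIR. A single RA cell held 1226 UMIs of neutrophil markers among 24830, with 7 of the microglia list, so that the neutrophil list reached 6098 CPM in RA dividing cells against 70.3 in OIR. That cell carried 9 of the 18 Ccnd3 UMIs, 7 of the 14 Cdkn2d UMIs and 4 of the 16 Cdkn2c UMIs of its group. A single OIR cell held 1497 erythroid UMIs among 7769. The macrophage list gave over 1% of UMIs in 4 of the 17 RA cells and 1 of the 121 OIR cells. The monocyte list stood at 1732 CPM in RA and 124 in OIR dividing cells. Cells with under 0.1% of UMIs from Malat1 were also spread unevenly. Without them 13 of the 17 RA and 67 of the 121 OIR dividing cells remained, against 710 of 711 and 366 of 380 microglia. Leaving such cells out is among the alternatives given further below. Their part in the Cdkn1a and Cdk4 values of dividing cells was not tested.

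The members differed in where they stood highest. Cdk4 was the member whose OIR interval lay above its RA interval in all 4 classes, Cdkn2c and Cdkn2d were highest in OIR dividing cells, Ccnd3 and Cdkn1b were highest in monocytes, Ccnd1 in macrophages, and Cdkn1a was the most counted member in every class. These are levels of UMIs counted near the 3′ end of each transcript, so that they are not divided by gene length.

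**Figure D1:**
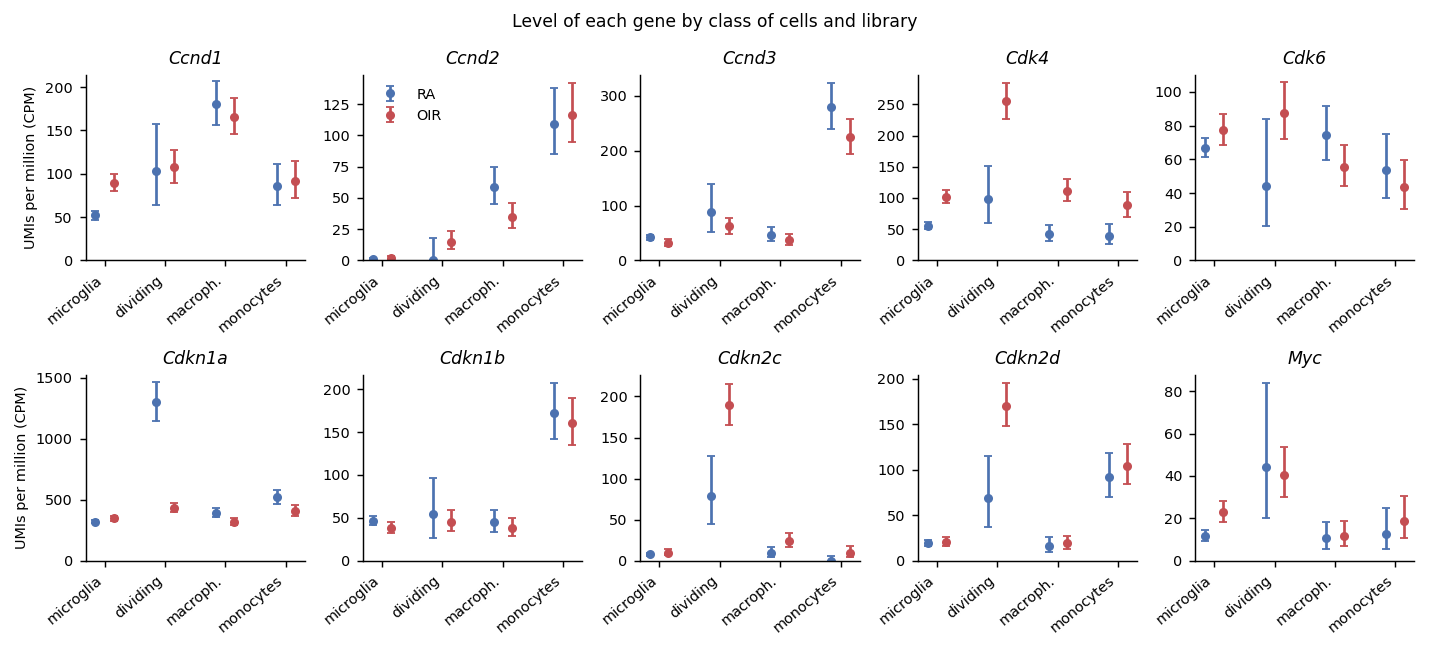
Level in CPM (linear axis from 0) of each of the 10 genes in microglia, dividing cells, macrophages (macroph.) and monocytes, with RA in blue and OIR in red and bars for the 95% Poisson interval of 1 library. The OIR point lies above the RA point in all 4 classes for Cdk4, and Ccnd3 stands at 280 and 224 CPM in monocytes against no more than 88.3 elsewhere.

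Among the D cyclins, Ccnd1 and Ccnd3 were counted in every class, and Ccnd2 was a gene of macrophages and monocytes. In microglia, Ccnd1 stood at 52.1 CPM in RA (47.2 to 57.5) and 89.2 in OIR (79.7 to 99.6), 1.71-fold higher in OIR with a log2 ratio of 0.77 (0.56 to 0.99). Ccnd3 went the other way, with 42.0 CPM in RA and 31.8 in OIR and a log2 ratio of -0.40 (-0.72 to -0.09). Ccnd1 therefore made up 54.8% of the D cyclin UMIs in RA microglia (51.1 to 58.5) and 72.7% in OIR microglia (68.3 to 76.8). In the other classes the interval of the Ccnd1 ratio included 0, and whether the classes differ was not tested. Macrophages had 180 CPM in RA and 166 in OIR (-0.12, -0.39 to 0.15), and dividing cells 103 and 108 (0.06, -0.61 to 0.80).

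Monocyte Ccnd1 came largely from single cells. Of 54 UMIs in RA, 30 were in 1 cell, and of 78 in OIR, 45 were in 1 cell. Without those cells the level was 39.2 and 39.7 CPM in place of 85.3 and 91.6. Only 23.1% of RA and 22.5% of OIR monocytes had a Ccnd1 UMI, against 69.3% and 71.8% of macrophages, at median depths of 9859 and 7941 against 12521 and 12476 UMIs. Thinning to 2100 UMIs, here and below, took only cells of at least that depth and left out the rest. The shares were then 7.84% and 4.76% of monocytes against 29.7% and 29.4% of macrophages. They were 1.55% and 2.53% of the photoreceptors deep enough to thin. Photoreceptors before thinning had shares of 2.27% and 2.56% at medians of 1814 and 1271.5 UMIs.

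Ccnd2 had 8 UMIs in 711 RA microglia (1.05 CPM) and 6 in 380 OIR microglia (1.69 CPM), beside 2.67 and 8.93 CPM in photoreceptors. Of the photoreceptor UMIs, 2 of the 3 in RA and all 6 in OIR were in 1 cell of each library. Without those cells photoreceptors stood at 0.90 and 0 CPM. Macrophages held 58.6 CPM in RA (45.4 to 74.4) and 34.9 in OIR (26.1 to 45.6), with a log2 ratio of -0.75 (-1.30 to -0.21). That ratio ran from -0.90 to -0.02 under the alternatives given further below. Of 67 UMIs in RA macrophages, 16 were in 1 cell, and of 53 in OIR, 10 were in 1 cell. A Ccnd2 UMI was seen in 25.3% of RA (16.0 to 36.7) and 20.4% of OIR macrophages (13.1 to 29.5), with overlapping intervals. Monocytes held 109 and 116 CPM, with a ratio near 0 (0.09, -0.37 to 0.56). None of the 17 RA dividing cells had a Ccnd2 UMI, which allows a share of cells with a UMI of up to 17.6% at this depth, while 7 of 121 OIR dividing cells had one, with 8 of the 18 UMIs in 1 cell.

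Ccnd3 was the D cyclin with most UMIs in the monocyte class. Its level there was 280 CPM in RA (240 to 324) and 224 in OIR (194 to 258), against 47.2 and 36.8 in macrophages, and it made up 59.0% and 51.9% of the D cyclin UMIs of monocytes but 16.5% and 15.5% of those of macrophages. A Ccnd3 UMI was seen in 92.3% of RA and 76.4% of OIR monocytes, and in 49.0% and 40.5% after thinning, against 7.75% and 8.86% of thinned photoreceptors. In all 4 classes the OIR level lay below the RA level, with log2 ratios from -0.51 in dividing cells to -0.32 in monocytes (-0.62 to -0.02), and the intervals in dividing cells and macrophages included 0. In dividing cells the direction turned without the cell of neutrophil markers and the cell of erythroid markers, to 50.3 CPM in RA and 62.4 in OIR (log2 ratio 0.31).

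**Figure D2:**
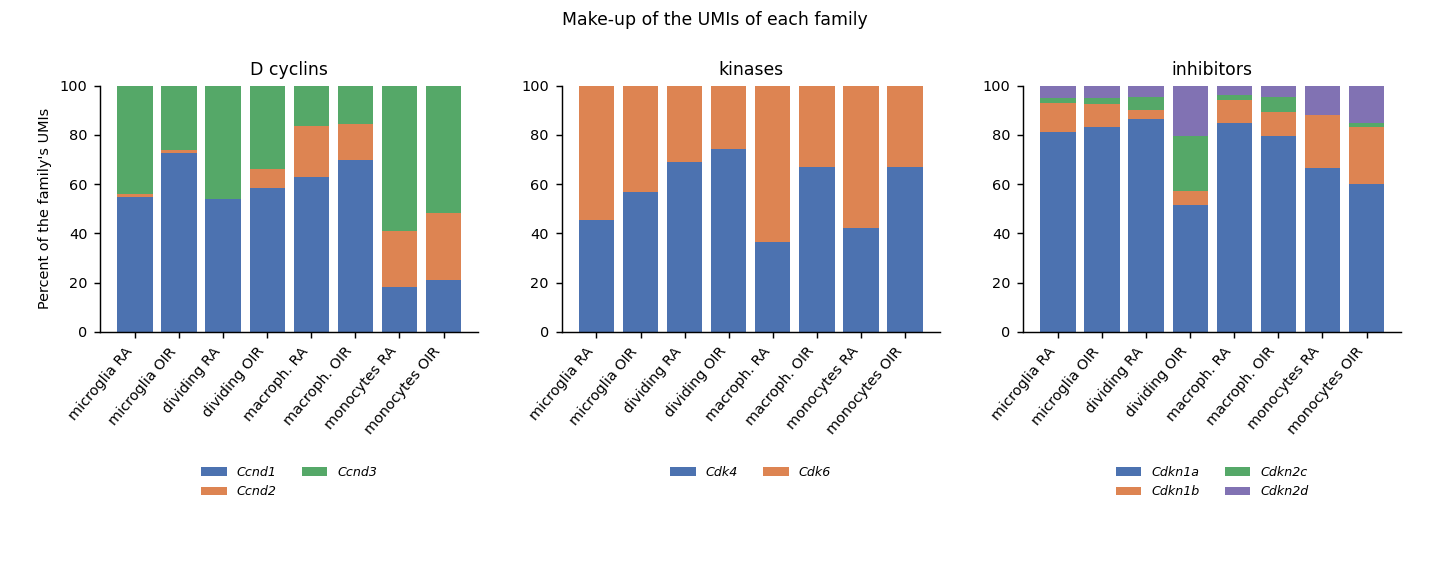
Share of the UMIs of the D cyclins, of Cdk4 and Cdk6, and of the 4 inhibitors that each gene made up, in percent, for each class and library. Ccnd3 takes 59.0% and 51.9% of the D cyclin bar in monocytes, and Cdkn2c and Cdkn2d take 22.6% and 20.3% of the inhibitor bar in OIR dividing cells.

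Of the D cyclins' kinase partners, Cdk4 stood higher in OIR in every class, and Cdk6 did not. In microglia, Cdk4 was at 55.5 CPM in RA (50.4 to 61.1) and 102 in OIR (91.7 to 113), a 1.83-fold difference (log2 ratio 0.88, 0.67 to 1.08). In macrophages it was at 42.8 (31.7 to 56.6) and 112 (95.6 to 130), a 2.61-fold difference (1.38, 0.92 to 1.87). In monocytes it was at 39.5 (25.6 to 58.3) and 88.1 (69.3 to 110), a 2.23-fold difference (1.16, 0.49 to 1.87). In dividing cells it was at 98.1 (59.9 to 152) and 255 (227 to 285), a 2.6-fold difference (1.38, 0.72 to 2.11). The 2 intervals did not overlap in any of the 4 classes.

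The Cdk4 ratio lay above that of 93.9% of the genes compared in microglia, 93.2% in dividing cells, 96.9% in macrophages and 94.1% in monocytes. It kept to the same side in both main microglia clusters. In the cluster led by Rrad and Ddit3 it was 57.0 CPM in RA and 96.2 in OIR, and in the cluster led by Tnfaip2 and Tnf it was 52.8 and 106. A Cdk4 UMI was seen in 42.9% of RA and 52.6% of OIR microglia, and after thinning in 10.6% (8.41 to 13.1) and 23.1% (19.0 to 27.7). In photoreceptors Cdk4 was at 25.8 and 26.8 CPM (log2 ratio 0.05, -0.88 to 0.95), with UMIs in 3.88% and 6.33% of thinned cells. The interval for photoreceptors is wide enough to hold the ratio of microglia.

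Cdk6 was at 66.8 CPM in RA and 77.1 in OIR microglia (log2 ratio 0.21, -0.01 to 0.42), 74.3 and 55.2 in macrophages (-0.43, -0.88 to 0.02) and 53.7 and 43.4 in monocytes (-0.31, -1.02 to 0.41). In dividing cells it rested on 9 UMIs in RA and 106 in OIR, at 44.1 and 87.7 CPM (0.99, 0.01 to 2.16). Cdk4 thus made up 45.4% of the UMIs of both kinases in RA microglia (42.2 to 48.7) and 56.9% in OIR (52.97 to 60.8), 36.6% and 66.9% in macrophages, 42.4% and 67.0% in monocytes, and 69.0% and 74.4% in dividing cells.

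The INK4 inhibitors Cdkn2c and Cdkn2d stood higher in dividing cells than in microglia in both libraries. Cdkn2c stood at 7.71 CPM in RA and 9.85 in OIR microglia, and at 78.5 (44.9 to 127) and 189 (166 to 216) in dividing cells, 10.2-fold (5.47 to 17.9) and 19.2-fold (13.4 to 28.3) higher. Cdkn2d stood at 19.2 and 21.1 CPM in microglia and at 68.7 (37.5 to 115) and 170 (148 to 195.3) in dividing cells, 3.57-fold and 8.07-fold higher. Between the libraries, OIR dividing cells were above RA dividing cells by log2 ratios of 1.27 (0.54 to 2.10) for Cdkn2c and 1.31 (0.53 to 2.21) for Cdkn2d. Without the cell that carried neutrophil markers, the RA levels were 67.0 and 39.1 CPM, and RA Cdkn2d was then 1.03 above microglia on the log2 scale in place of 1.84.

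The INK4 genes parted in the other classes. Cdkn2d was at 91.6 CPM in RA and 104 in OIR monocytes, 4.77-fold and 4.95-fold above microglia, and at 16.6 and 19.1 in macrophages. Cdkn2c had 0 UMIs in the 52 RA monocytes, which allows a share of cells with a UMI of up to 5.77% at this depth, and 8 UMIs in 5 of 89 OIR monocytes. In macrophages Cdkn2c had 11 UMIs in RA and 37 in OIR, at 9.62 and 24.3 CPM (log2 ratio 1.34, 0.34 to 2.46). The dividing-cell list stood at 192 CPM in RA and 533 in OIR macrophages, and its part in the Cdkn2c difference was not tested. Photoreceptors also held both genes, Cdkn2c at 20.5 and 53.6 CPM and Cdkn2d at 23.1 and 49.1 CPM. A Cdkn2c UMI was seen in 4.65% and 12.7% of thinned photoreceptors against 1.27% and 2.13% of thinned microglia. The microglial share was the lower in both libraries, and whether either reflects RNA from other cells was not tested.

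Of the Cip/Kip inhibitors, Cdkn1a was abundant in all 4 classes and Cdkn1b stood highest in monocytes. In the largest cluster of shallow cells, described further below, Cdkn1a was low, at 16.4 CPM in RA and 70.9 in OIR. Cdkn1a was at 320 CPM in RA (307 to 333) and 347 in OIR microglia (328 to 367), a log2 ratio of 0.12 (0.02 to 0.22). A single cell held 86 UMIs in RA and another 87 in OIR, and without them the ratio was 0.07. Cdkn1a was at 395 and 320 in macrophages (-0.30, -0.49 to -0.12) and 521 and 411 in monocytes (-0.34, -0.56 to -0.12). Of the 330 UMIs of RA monocytes, 46 were in 1 cell. Without the top cell of each library, monocytes stood at 464 CPM in RA and 403 in OIR. Cdkn1a was the inhibitor with most UMIs in each class, from 51.7% of the inhibitor UMIs in OIR dividing cells to 86.6% in RA dividing cells. Photoreceptors had 29.4 and 5.95 CPM, with 25 of the 33 RA UMIs in 1 cell.

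In dividing cells Cdkn1a reached 1300.0 CPM in RA (1148 to 1466) and 433 in OIR (397 to 472), 3.0-fold lower in OIR. A single RA cell held 101 of the 265 UMIs, and without it the RA level was 883 CPM, still above the 411 CPM of OIR without its own top cell. A Cdkn1a UMI was seen in 12 of 17 RA and 64 of 121 OIR dividing cells, 70.6% (44.0 to 89.7) and 52.9% (43.6 to 62.0). These intervals overlap, as do those after thinning (32.3 to 83.7 and 32.4 to 53.2), which kept 15 RA and 94 OIR cells. The intervals of the share of cells with the RNA therefore overlapped at this depth, while the counting intervals of the summed UMIs did not. Counting intervals leave out the spread between cells, so the sums do not show that the libraries differ.

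Cdkn1b was at 46.7 and 38.6 CPM in microglia, 44.6 and 38.1 in macrophages and 54.0 and 45.5 in dividing cells, and the intervals of all 3 OIR over RA ratios included 0. Monocytes held 172 CPM in RA (141 to 208) and 161 in OIR (135 to 190), 3.69-fold and 4.17-fold above microglia. Their OIR over RA log2 ratio was -0.10 (-0.47 to 0.28). A Cdkn1b UMI was seen in 78.8% of RA monocytes (65.3 to 88.9) and 64.0% of OIR monocytes (53.2 to 73.9), with overlapping intervals. After thinning, which was a single random draw, the shares were 51.0% (36.6 to 65.2) and 20.2% (12.3 to 30.4). The reason why the sums and the thinned shares differ was not tested. Photoreceptors held 82.8 and 99.7 CPM, above microglia and below monocytes.

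Myc was a low-count gene, with 89 UMIs in RA and 81 in OIR microglia. Its level there was 11.6 CPM (9.34 to 14.3) and 22.8 CPM (18.1 to 28.3), a 1.96-fold difference (log2 ratio 0.97, 0.52 to 1.42) just inside the 2-fold limit. A UMI was seen in 9.28% of RA and 14.7% of OIR microglia, and in 1.55% (0.776 to 2.76) and 3.46% (1.85 to 5.84) after thinning. Photoreceptors had none, in 308 and 234 cells, which allows a share of cells with a UMI of up to 0.974% and 1.28% at their lower depth. In the microglia cluster led by Tnfaip2 and Tnf it was 8.26 CPM in RA and 26.8 in OIR, and in the cluster led by Rrad and Ddit3 it was 14.1 and 16.7 with overlapping intervals. Whether these clusters differ was not tested. Macrophages had 10.5 and 11.8 CPM from 12 and 18 UMIs, monocytes 12.6 and 18.8 from 8 and 16, and dividing cells 44.1 and 40.5 from 9 and 49. Of the 9 in RA dividing cells, 7 were in 1 cell, and of the 49 in OIR dividing cells, 14 were in 1 cell.

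Members were then counted by size, among genes with a mean of at least 10 CPM and at least 10 UMIs, with a call at 2-fold or more. In microglia 0 of the 8 members that entered were called in either direction, against 4.01% of genes called higher and 3.94% called lower in OIR. In dividing cells 3 of 9 members were higher (Cdk4, Cdkn2c and Cdkn2d) and 1 was lower (Cdkn1a), where 13.4% of genes were called higher and 11.8% lower. In macrophages 2 of 10 were higher (Cdk4 and Cdkn2c) and 0 lower, against 8.75% and 5.02% of genes. Cdkn2c lay under 10 CPM in RA macrophages, at 9.62, and entered through its OIR level. In monocytes 1 of 9 was higher (Cdk4) and 0 lower, against 8.1% and 7.45%. The median log2 ratio of the members was 0.17 in microglia, 0.06 in dividing cells, -0.17 in macrophages and 0.09 in monocytes, beside 0.05, 0.06, 0.15 and 0.10 for all genes compared. The members lay on both sides of 0 in every class, and those called in dividing cells rest on 17 RA cells. Where clusters had to have a UMI of Ptprc (CD45) in 25% of cells in place of 10%, 7 RA and 61 OIR dividing cells remained and the members called were Ccnd1 and Cdk6. Where any cell with UMIs of 5 dividing-cell markers counted as dividing, they were Cdk4 and Cdkn1a. With the 2% of cells of most genes kept, they were Ccnd2, Cdk6, Cdkn2d and Myc. In microglia Myc and Cdk4 passed 2-fold when cells were thinned to 2100 UMIs.

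**Figure D3:**
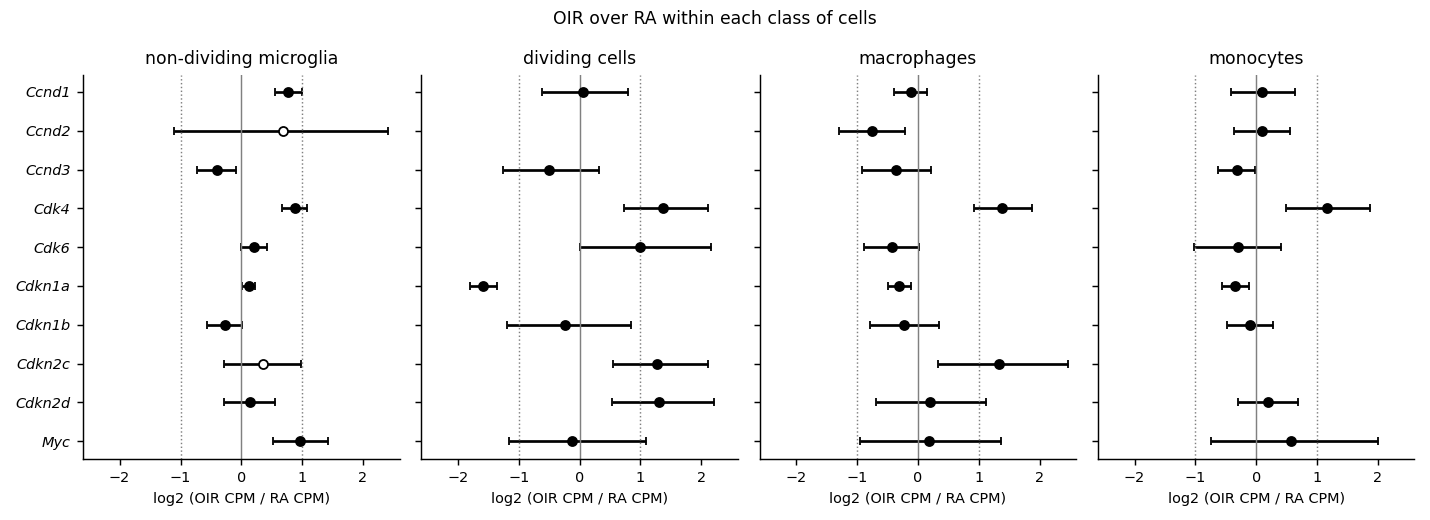
log2 ratio of OIR over RA CPM for each gene in each class, with 95% counting intervals; open points did not enter the count of 2-fold differences, and genes with 0 UMIs in a library are left out. Dotted lines mark 2-fold, and the Cdk4 points lie at 0.88, 1.38, 1.38 and 1.16.

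The same count was made between classes inside each library, which sets aside differences between the libraries, and a member was called only where both libraries passed 2-fold on the same side. Dividing cells were above microglia for 2 of 9 members (Cdkn2c and Cdkn2d) and below for 0, against 6.51% and 0.766% of genes. Macrophages were above microglia for 1 of 9 (Ccnd2) and below for 0, against 4.83% and 1.98%. Monocytes were above microglia for 4 of 9 (Ccnd2, Ccnd3, Cdkn1b and Cdkn2d) and below for 0, against 9.52% and 4.82%. Ccnd2 (1.05 CPM in RA and 1.69 in OIR) and Cdkn2c (7.71 and 9.85) lay under the 10 CPM limit in microglia. They entered only through the class where they were high, so their calls partly follow from the filter. The monocyte ratios were close in the 2 libraries, with log2 values of 2.74 and 2.82 for Ccnd3, 1.88 and 2.06 for Cdkn1b, and 2.25 and 2.31 for Cdkn2d. Set against macrophages in place of microglia, monocytes again held more Ccnd3 (2.57 and 2.61), Cdkn1b (1.95 and 2.08) and Cdkn2d (2.46 and 2.45). They held less Ccnd1 than macrophages, by log2 ratios of -1.08 (-1.54 to -0.64) in RA and -0.86 (-1.24 to -0.48) in OIR.

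**Figure D4:**
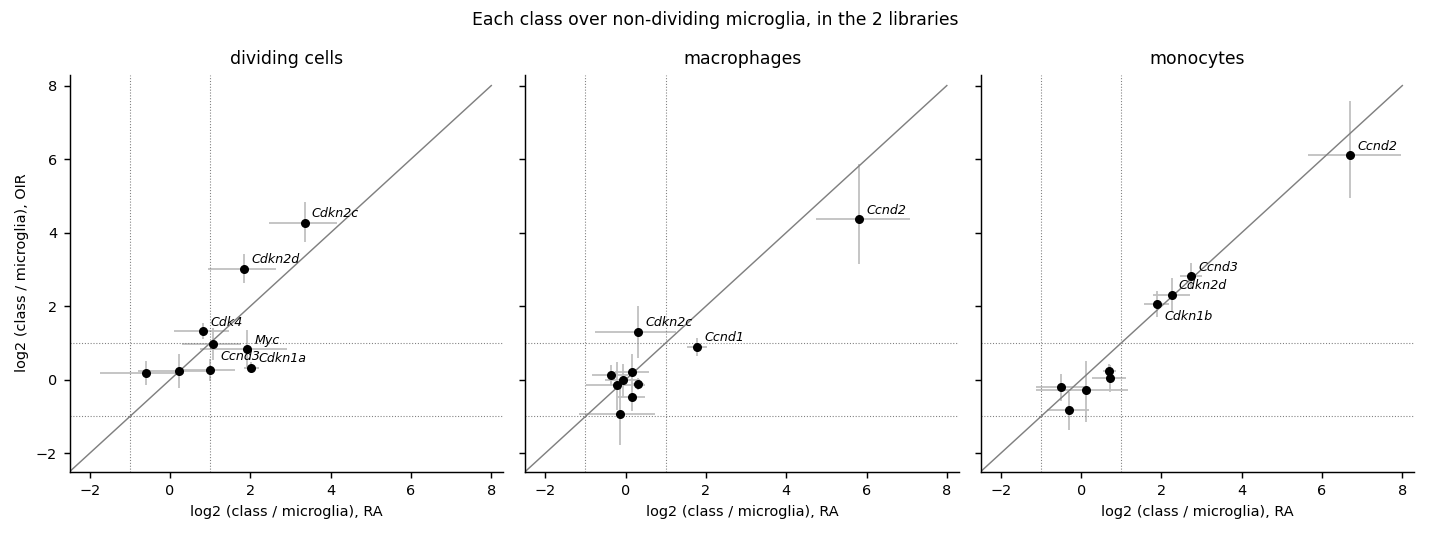
log2 ratio of each class over microglia in RA (horizontal) and in OIR (vertical), 1 point per gene with 95% counting intervals in grey, the diagonal of equal ratios, and dotted lines at 2-fold; genes with 0 UMIs in a group are left out. Ccnd3, Cdkn1b and Cdkn2d of monocytes lie on the diagonal, while Cdkn1a of dividing cells lies off it at 2.02 in RA and 0.32 in OIR.

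The other members of the dividing cells stood as follows against microglia. Cdk4 was 1.77-fold above microglia in RA (1.07 to 2.76) and 2.50-fold in OIR (2.14 to 2.92). Ccnd3 was 2.10-fold and 1.95-fold above, and the log2 ratio of RA went from 1.07 to 0.26 without the cell of neutrophil markers. Myc was 3.8-fold and 1.78-fold above, and its RA log2 ratio went from 1.92 to 0.07 without the top cell of each group. Without the top cells in OIR, Myc was at 29.2 CPM in dividing cells and 21.5 in microglia. Its OIR log2 ratio ran from -1.43 to 1 under the alternatives given further below. Cdkn1a was 4.06-fold above in RA and 1.25-fold in OIR. Cdkn1b was at 1.16-fold and 1.18-fold, with intervals that included 1 in both.

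The OIR dividing cells were split by whether their summed S phase or G2M phase genes were the larger after scaling. Each sum was first divided by its list's total over the dividing cells of both libraries, and ties went to G2M. The split is thus relative to the other dividing cells. It gave 54 and 67 cells with median depths of 11086 and 5405 UMIs. The INK4 genes went with G2M. Cdkn2c was at 83.8 CPM in S cells and 296 in G2M cells (log2 ratio -1.82, -2.30 to -1.36), and Cdkn2d at 75.6 and 266 (-1.82, -2.32 to -1.34). In OIR Ccnd3 was higher in S cells, at 85.5 and 38.3 CPM (1.16, 0.43 to 1.93), and Cdk4 was at 306 and 203 CPM (0.59, 0.25 to 0.93). Ccnd1 (0.03), Myc (0.04) and Cdkn1b (-0.28) had intervals that included 0. As a check of the split, Ccne1, the cyclin of the G1/S step, was at 92.1 and 6.66 CPM and Ccnb1, a mitotic cyclin, at 49.3 and 348. In RA the split left 11 and 6 cells, where Cdkn2c was 4 UMIs against 12 and Cdkn2d 4 against 10. These are 29.0 CPM in S and 182 in G2M cells for Cdkn2c, and 29.0 and 151 for Cdkn2d. The libraries thus differed in their mix of phases. The part of that mix in the OIR over RA ratios of Cdkn2c and Cdkn2d was not tested. Ccnd3 lay the other way in RA, at 58.0 CPM in S and 151 in G2M cells (-1.38, -2.93 to 0.11), from 8 and 10 UMIs.

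**Figure D5:**
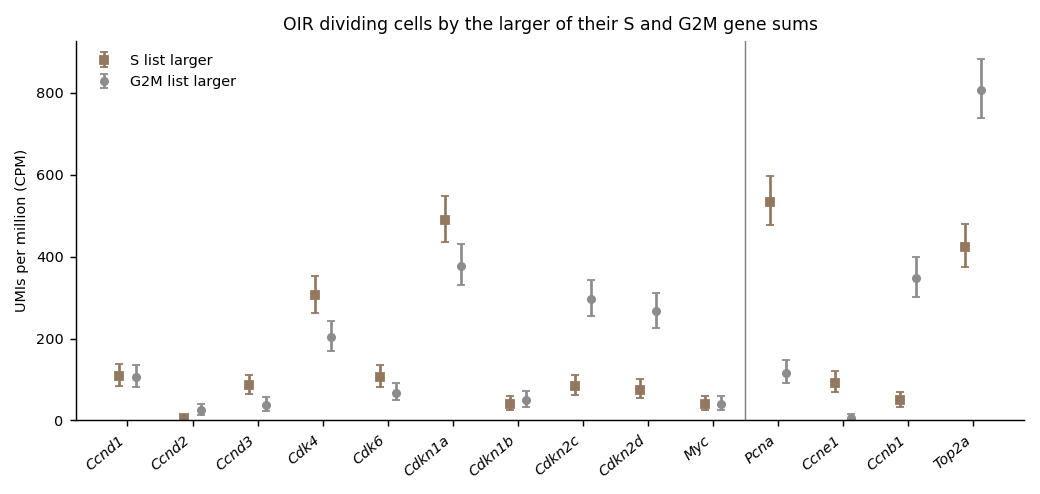
Level in CPM (linear axis from 0) in OIR dividing cells whose scaled S list sum (squares, 54 cells) or G2M list sum (circles, 67 cells) was the larger, with 95% Poisson intervals. Each sum was divided by its list's total over all dividing cells. Cdkn2c and Cdkn2d are at 83.8 and 75.6 CPM in S cells and 296 and 266 in G2M cells, and the 4 genes right of the line are cell cycle genes given for reference, of which Pcna and Top2a were in the lists.

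Genes around the 10 were taken from 7 lists of known pathway genes. Of 29 partners of the G1/S step, 28 were in the files and 16 could be compared in microglia between OIR and RA. There 3 were higher and 1 was lower, beside 4.01% and 3.94% of all genes. The median was -0.27 beside 0.05 for all genes. E2f1, the transcription factor freed from the retinoblastoma protein, was at 2.61 CPM in RA and 19.4 in OIR (2.89, 2.16 to 3.69), and Cks1b, a Cdk subunit, at 5.36 and 16.9. Cks2, its relative, was at 97.4 and 39.97. Of 20 E2F targets, 10 could be compared in microglia and 6 were higher and 0 lower in OIR, with a median of 1.43, beside 4.01% of all genes called higher. The helicase genes Mcm2, Mcm5 and Mcm6 had the largest ratios, at 3.01, 2.90 and 2.51. In macrophages 9 of 12 E2F targets were higher (median 1.88), in dividing cells 6 of 18 (0.70) and in monocytes 2 of 8 (0.34), with 0 lower in each. Of all genes, 8.75%, 13.4% and 8.1% were called higher in these classes, with medians of 0.15, 0.06 and 0.10. The dividing-cell list stood at 80.9 CPM in RA and 282 in OIR microglia, and its part in the E2F targets was not tested. Genes entered on the mean of both groups, so a gene near 0 in RA entered only where OIR was high. Against microglia, 5 of the 20 E2F targets entered for macrophages in RA and 14 in OIR. The filter can thus raise the counts called higher and the medians of these 2 lists, and how far was not tested.

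The next lists were those of Myc and p53. Of 20 Myc targets, 18 could be compared in microglia. In OIR 1 was higher and 0 lower (median 0.15), beside 4.01% and 3.94% of all genes. The higher gene was Eif5a, a translation factor, at 267 CPM in RA and 572 in OIR (1.10, 1.01 to 1.19). Srm, which makes spermidine, was at 28.5 and 52.6 CPM (0.89), and Gnl3, a nucleolar gene, at 88.2 and 51.5 (-0.78). In macrophages 2 of 18 Myc targets were higher, Srm (1.43) and Eif5a (1.32), in monocytes 2 of 17, and in dividing cells 4 of 17 with 1 lower, where 8.75%, 8.1% and 13.4% of all genes were called higher and 11.8% lower in dividing cells. Of the Myc partners and antagonists, 6 of the 12 listed could be compared in microglia. None was called in either direction, beside 4.01% of all genes higher and 3.94% lower. Of 18 p53 targets, 11 could be compared in microglia and 2 were higher, Plk2 (1.74) and Gdf15 (1.69), with a median of 0.24, and 0 were lower, beside 4.01% and 3.94% of all genes. In dividing cells, where Cdkn1a was lower in OIR, 1 of 10 p53 targets was higher and 2 lower (median -0.30), beside 13.4% and 11.8% of all genes. Gadd45a, a growth arrest gene, was the lower of these at 54.0 CPM in RA and 3.31 in OIR.

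The last 2 lists stood for signals that reach the D cyclins. Of 17 genes of growth factor input, 15 could be compared in microglia, with 1 higher (Csf1, 1.33), 0 lower and a median of -0.22. Of all genes there, 4.01% were called higher and 3.94% lower. In dividing cells 1 of 15 was higher and 4 lower (-0.48), beside 13.4% and 11.8% of all genes. Of 18 immediate early genes, 0 were called in microglia in either direction (median -0.13), beside 4.01% of all genes higher and 3.94% lower. In OIR macrophages 2 were lower (-0.51), where 5.02% of all genes were called lower.

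For each member the 3 most similar genes were found by Pearson's r of log2(CPM + 5) over the 8 groups, among 7651 genes. The 8 groups share 2 libraries, so the values only describe likeness. Cdkn2c was most like Cdk1 (r = 0.99), the mitotic kinase, Slc43a3 and Ncapg2. Cdk4 was most like Crls1 (0.99), Eftud2 and Hspa4, and Myc most like Stt3b (0.99), Srsf7 and Aen. Ccnd1 was most like Dab2 (0.96), a marker in the macrophage list, with Gas7 and Myo5a. Ccnd2 went with Clec4a1 (0.99), Ahr and Pid1, and Ccnd3 with Ear2 (0.99), a marker in the monocyte list, Mkl1 and Ccdc88c. Cdkn1b went with Klf13 (0.99), Stk24 and Lcp2, Cdkn2d with Cdkn2aipnl (0.99), Jpt1 and Smc6, Cdkn1a with Zcchc8 (0.98), Senp1 and Hira, and Cdk6 with Spg20 (0.93), Anapc2 and Smim19.

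Clusters of shallow cells with microglia markers were kept apart, since their median depth was below 4000 UMIs. The largest, led by Cryba4, Crybb1, Fabp5 and Cst7, held 67 RA and 120 OIR cells. Its OIR cells had 60 Cdk4 UMIs where the deeper OIR microglia would give 34.5 (log2 ratio 0.80, 0.38 to 1.20), and 24 Cdkn1a UMIs where they would give 118 (-2.29, -2.94 to -1.71). Cdk6 (-1.90), Ccnd1 (-1.22) and Cdkn1b (-1.71) were also below the deeper cells, and Myc had 3 UMIs. In its RA cells Cdk4 was again above (1.0, 0.38 to 1.56) and Cdkn1a far below, with 4 UMIs where 77.9 would be found (-4.28). An OIR cluster of 61 cells led by Gclm and Slc48a1 held Cdk4 at 0.67 (0.14 to 1.16), Cdk6 at -2.56 and Cdkn1a at -1.36 against the deeper OIR microglia. Malat1 was at 2094 CPM in the RA and 106 in the OIR cells of the first of these clusters and at 21.8 in the OIR cells of the second, and its part in these differences was not tested.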

How the data were processed

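Per the labels and the study's methods, sorted retinal cells were processed on the 10x Chromium platform. The authors deposited raw UMI counts per gene and cell for each library, made with Cell Ranger 3.1.0 per the file headers, and the submitters' processing notes name mm10 and Seurat 4.0. The count tables had no normalization. The authors' cell annotation was not used here, so the classes are rebuilt and may differ from the study's.

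Filters took out cells in which mitochondrial genes gave over 20% of UMIs and the 2% of cells with most genes. The libraries were integrated in Seurat 5.3.0 (R 4.3.3) on 3000 anchor genes less any of the 10 members, with 30 dimensions, and myeloid clusters (at least 10% of cells with a Ptprc UMI) were clustered again at resolution 0.6 into 11 clusters. Scrublet called 4 RA and 2 OIR cells, too few to have worked as a doublet caller, so doublets were left in and left out as an alternative. Clusters with a median under 4000 UMIs were kept apart. UMIs were summed per class and library and given as CPM with exact Poisson intervals, ratios with exact conditional binomial intervals, and shares with Clopper-Pearson intervals, in Python 3.11.15 with scipy 1.17.1. All intervals cover counting error only. Genes entered with a mean of at least 10 CPM and 10 UMIs, a call was a log2 ratio of at least 1 in size, and a group with 0 UMIs was set at 3 UMIs, as was the limit on a share of cells with a UMI where none had one. The interval code was tested on simulated data. With 1 pooled library per condition, no p-value was computed.

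The 10 members, the gene lists and the rules were chosen with earlier results of these data known. The text names all 10 members, for each the 3 genes of most similar level among those with at least 20 CPM in a group, and the listed genes of largest ratio. Motifs were searched on both strands of RefSeq windows.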

Additional observations from a re-analysis of the deposited data

Results flagged for a closer look

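The log2 ratio of OIR over RA for Cdkn1a lay above 0 in non-dividing microglia, at 0.12 (0.02 to 0.22), and below 0 in dividing cells, at -1.58 (-1.80 to -1.37), in macrophages, at -0.30 (-0.49 to -0.12), and in monocytes, at -0.34 (-0.56 to -0.12). The intervals lay on opposite sides of 0, and the difference between the classes was not tested. The dividing value rests on 17 RA cells, of which 1 held 101 of 265 UMIs. The microglia value was 0.07 without the cell of most UMIs in each library and lay between 0.02 and 0.15 under the alternatives. The macrophage value ran from -0.51 to -0.09 under the alternatives, and the monocyte value from -0.46 to 0.03, so that the monocyte sign was not kept throughout.

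Ccnd2 was also counted outside the sorted classes. A small cluster led by endothelial and pericyte genes such as Cldn5 and Rgs5 had 590 CPM of Ccnd2 in OIR (456 to 750, 66 UMIs in 10 cells), above the highest upper bound of the myeloid classes in OIR, 142 CPM. Its 5 RA cells had 13 UMIs, 193 CPM (103 to 329).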

How the results depend on the processing

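The results were recomputed under 24 alternatives, 18 planned and 6 added after seeing the data. The added ones put shallow clusters into their class, left out the cell with most UMIs of each member, used the dividing cells of 1 phase list, left out dividing cells of neutrophil or erythroid markers, or kept those of the dividing cluster with 5 dividing genes. Of 141 counts of 2-fold members, 120 stayed within 1.5 times the reported count. Of 1837 ratios, 1704 stayed inside the counting interval of the reported value, and 95, over 34 of the 96 member ratios, had the other sign. Of 27 ratios past 2-fold, 25 kept 1 sign throughout and the other 2 changed sign in 5 values, and 504 of their 532 values were still 2-fold.

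OIR against RA, the microglia count of 0 became 1 (Myc) with all anchor genes, without integration, at a resolution 0.2 higher, with the top 2% of cells kept, at a Ptprc limit of 25% and with doublets left out, and 2 (Cdk4 and Myc) after thinning to 2100 UMIs. The dividing count of 4 became 2 at the Ptprc limit of 25% (Ccnd1 and Cdk6) and 2 where any cell with 5 dividing genes counted as dividing (Cdk4 and Cdkn1a). Of the 23 alternatives for dividing cells, Cdk4 and Cdkn1a were called in 21, Cdkn2d in 19 and Cdkn2c in 18, and with the top 2% of cells kept the 4 called were Ccnd2, Cdk6, Cdkn2d and Myc. The macrophage count of 2 became 1 (Cdk4) after thinning and at a mean of 50 CPM. The monocyte count of 1 became 0 at the Ptprc limit of 25%, 2 (Cdk4 and Myc) with the mean over cells and without each top cell, and 3 after thinning (Cdk4 higher, Cdk6 and Cdkn1b lower). Against microglia in both libraries, the dividing count of 2 became 4 with the mean over cells and 0 at 50 CPM. The macrophage count of 1 became 2 (Ccnd1 and Ccnd2) with the top 2% of cells kept, at the Ptprc limit of 25% and with shallow clusters added, and 0 at 50 CPM, where 3 members enter. Among ratios past 2-fold, the signs that changed were those of RA dividing cells over microglia, for Ccnd3 to -0.38 without integration and -0.52 after thinning, and for Myc to -1.30 with the top 2% of cells kept, -0.10 at a mitochondrial limit of 10% and -0.83 with doublets left out. The cause of these changes was not tested.

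Across the alternatives the Cdk4 log2 ratio of OIR over RA ran from 0.79 to 1.15 in microglia, 0.89 to 1.74 in dividing cells, 1.05 to 1.54 in macrophages and 0.94 to 1.46 in monocytes. Cdkn1a in dividing cells ran from -1.87 to -0.79, Cdkn2c from 0.35 to 1.53 and Cdkn2d from 0.61 to 2.32. Leaving out dividing cells with a macrophage UMI kept 2 RA cells, and no OIR over RA ratio was computed from them. No paired analysis was possible because each condition is 1 library. Depth limits Ccnd2 and Cdkn2c in microglia and Myc outside microglia, which rest on few UMIs.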

Other observations

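The endothelial or pericyte-led cluster also held 26 Cdk4 UMIs in its 10 OIR cells, 232 CPM (152 to 340), and 8 in its 5 RA cells, 119 CPM (51.2 to 234). Its OIR cells had 0 Cdkn1a UMIs, with an upper bound of 33.0 CPM, where its RA cells had 29, 430 CPM (288 to 617). Cdk6 was at 152 CPM in the OIR cells (88.5 to 243) and had 0 UMIs in the RA cells, with an upper bound of 54.7 CPM.

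A shallow cluster of macrophage markers held 15 RA and 42 OIR cells. Against deep OIR microglia its OIR cells had 29 Cdk4 UMIs where 11.1 would be found, a log2 ratio of 1.38 (0.78 to 1.93), 22 Ccnd1 UMIs where 9.76 would be found (1.17, 0.48 to 1.80), and 7 Cdkn1a UMIs where 38.0 would be found (-2.44, -3.76 to -1.39). Its RA cells had 2 Cdk4 UMIs where deep RA microglia would give 2.67 and 15 Ccnd1 UMIs where they would give 2.51 (2.58, 1.73 to 3.32). The interferon-led microglia cluster had Ccnd1 at 188 CPM in 9 RA cells (109 to 301) and 411 in 7 OIR cells (271 to 597). Those values were above both larger microglia clusters in each library, which lay between 48.7 and 84.3 CPM.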
